A study of Mus musculus with 8 samples.

Results

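Microglia at rest carry a set of surface receptors and secreted proteins by which they are recognised, and 9 genes of that set are described here across the 8 ATAC-seq peak lists of the study. The genes are Cx3cr1, P2ry12, Csf1r, Tmem119, Olfml3, Trem2, Tyrobp, Itgam and Aif1. They were chosen by name, and a peak was counted for a gene when it lay within 10 kb of the gene body in RefSeq's annotation of GRCm38.p6. Peaks of all lists were merged where they overlapped by at least 1 bp. This gave 24 regions for the 9 genes, out of 40784 regions in the series. The annotation holds 21883 protein-coding genes.

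ATAC-seq maps open chromatin by the places where the Tn5 transposase can insert sequencing adapters. The cells were BV2, an immortalised line of mouse microglia. They were kept on their own (monoculture) or plated on top of the mouse glioma line GL261 (co-culture), and spent 16 h in normoxia (21% oxygen) or hypoxia (below 0.1% oxygen). Each of the 4 groups (monoculture normoxia, monoculture hypoxia, co-culture normoxia, co-culture hypoxia) had 2 biological replicates. Formaldehyde-fixed cells that carried CD45, a surface protein of leukocytes, or GFP were sorted ahead of Tn5 treatment, and the labels do not say which libraries used which sort. The labels name no genotype or other agent that separates the groups. A library pools many cells, so that fewer cells with an open region and less opening per cell cannot be told apart. BV2 is a line that divides in culture, which limits it as a model of resting microglia.

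Homeostatic microglia depend on the colony-stimulating factor receptor Csf1r for survival, sense neuronal fractalkine through Cx3cr1 and extracellular ADP through P2ry12, and are marked in brain by Tmem119 and the secreted protein Olfml3. Trem2 is a lipid-sensing receptor that signals through the adaptor Tyrobp, also called DAP12. Itgam is the CD11b chain of complement receptor 3, and Aif1 encodes the actin-binding protein IBA1. PU.1, an ETS factor, binds many enhancers of these cells, and promoters of lineage-restricted genes are often poor in CpG.

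RefSeq promoter windows (GRCm38.p6), from 250 bases before to 50 after the annotated start, were matched by symbol for 6 of the 9 genes. Entries for Csf1r, Tmem119 and Tyrobp are missing. The 4 windows printed here are those of the 3 genes whose start was called open in some libraries (Trem2, Cx3cr1 and Olfml3) and, for contrast, that of Itgam, which had no peak in its window in any list. They are the 5′ to 3′ gene strands of chr17:48346151-48346450 (plus strand, Trem2), chr9:120068247-120068546 (minus strand, Cx3cr1), chr3:103737952-103738251 (minus strand, Olfml3) and chr7:128062390-128062689 (plus strand, Itgam). Capitals mark the PU.1 core GAGGAA or its reverse complement TTCCTC, and the Cx3cr1 and Olfml3 windows hold none.

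Trem2: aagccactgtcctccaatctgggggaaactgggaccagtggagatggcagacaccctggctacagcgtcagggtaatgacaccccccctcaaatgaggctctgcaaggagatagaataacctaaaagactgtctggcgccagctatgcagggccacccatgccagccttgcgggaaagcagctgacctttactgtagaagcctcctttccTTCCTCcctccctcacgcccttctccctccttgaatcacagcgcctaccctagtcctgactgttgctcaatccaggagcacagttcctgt
Cx3cr1: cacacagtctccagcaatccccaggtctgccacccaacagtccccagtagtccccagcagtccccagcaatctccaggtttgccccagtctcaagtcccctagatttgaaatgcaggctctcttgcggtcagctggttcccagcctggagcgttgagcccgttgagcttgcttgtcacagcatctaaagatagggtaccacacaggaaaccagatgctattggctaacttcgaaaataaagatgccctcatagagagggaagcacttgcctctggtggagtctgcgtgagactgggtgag
Olfml3: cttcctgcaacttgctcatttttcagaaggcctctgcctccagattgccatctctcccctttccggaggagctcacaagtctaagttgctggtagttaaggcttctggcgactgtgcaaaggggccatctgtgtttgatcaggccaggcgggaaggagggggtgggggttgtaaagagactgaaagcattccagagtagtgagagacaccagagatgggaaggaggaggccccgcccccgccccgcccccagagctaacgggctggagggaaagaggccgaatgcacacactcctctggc
Itgam: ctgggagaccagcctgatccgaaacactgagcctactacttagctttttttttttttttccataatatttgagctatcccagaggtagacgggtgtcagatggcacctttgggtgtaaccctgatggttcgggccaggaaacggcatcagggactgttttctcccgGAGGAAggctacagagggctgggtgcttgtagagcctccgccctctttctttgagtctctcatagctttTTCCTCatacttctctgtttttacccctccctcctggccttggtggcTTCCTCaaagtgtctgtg

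The PU.1 core stood in 3 of the 6 windows (Trem2, Aif1 and Itgam, the last with 3 matches), against 27.4% of 21262 promoter windows of protein-coding genes. In Trem2 it began 40 bases before the start. The ETS and IRF composite element (GGAA and GAAA with 2 bases of any kind between them), which can overlap the PU.1 core, stood in none of the 6 and in 2.53% of all windows. The hypoxia response core ACGTG stood in the P2ry12 window alone among the 6, on both strands at overlapping positions, and in 20.9% of all windows. AP-1 (TGANTCA) was matched in Trem2 alone and in 6.99% of all windows, and the RUNX core TGTGGT in Cx3cr1 alone and in 15.0%. Both strands were searched for each motif, and a match describes letters, not a bound factor. All 6 windows were poor in CpG, with 1 to 8 CpG each and a median of 5, against a median of 13 over all windows.

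The lists held 9910 to 29658 peaks, and peaks were called in each library separately. Depth is known only through the lists. From the deposited fold and −log10 p of a peak, the fragment count at the summit was solved, which was possible for 99.8% to 99.9% of peaks. All 119 peaks of the 9 genes were solved, with 9 to 194 fragments at the summit. A peak could be listed with as few as 6 to 8 fragments where the background was at its commonest level, which ran from 0.76 to 1.45 fragments per position and was lowest in monoculture normoxia. A region missing from a list is therefore one that was not detectable at that depth. Of 12 markers of GL261 and glial cells, a peak lay within 10 kb of 0, 0, 0 and 1 genes in the 4 monoculture lists, and of 6, 2, 6 and 4 genes in the 4 co-culture lists. The defining gene Sox2 was at 0 in all monoculture lists and had a peak in 3 co-culture lists, while Olig2, Sox9, Fabp7 and Ptprz1 were at 0 in all 8. The part of glioma chromatin in any difference between cultures was not tested. Of 10 markers of myeloid cells, 5 and 4 had a peak in monoculture normoxia and 8 to 10 in the other 6 lists, Ptprc (CD45) in all 8. Among markers of lymphocytes and epithelial cells, Cd3e, Epcam and Krt5 had a peak in no list, but Cd3g had one in 6 lists and Cd79a in 7. A peak within 10 kb of a gene therefore does not by itself tell cell types apart.

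Chromatin near these genes was open, but unevenly so. Cx3cr1, P2ry12, Csf1r, Trem2 and Aif1 had a peak within 10 kb in all 8 libraries, Olfml3 in 7, Tyrobp in 6, and Tmem119 and Itgam in 3 each. Among all protein-coding genes, 30.4% had a peak within 10 kb in all 8 libraries. Per library, 6 and 7 of the 9 genes had a peak in monoculture normoxia, 7 and 7 in monoculture hypoxia, 8 and 9 in normoxic co-culture, and 8 and 7 in hypoxic co-culture. The ranges of the 4 groups overlapped or touched, except that co-culture normoxia lay above both monoculture groups. The share of all protein-coding genes with a peak was lowest in monoculture normoxia too, 42.8% and 35.8%, against 57.5% to 64.5% in the other 6 lists. It was 57.5% and 58.4% in monoculture hypoxia and 59.0% and 59.9% in normoxic co-culture. Normoxic co-culture thus lay above both monoculture groups over all protein-coding genes as well. Of the 24 regions, 14 overlapped the gene body and 10 lay beside it, and 6 overlapped another protein-coding gene.

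**Figure D1:**
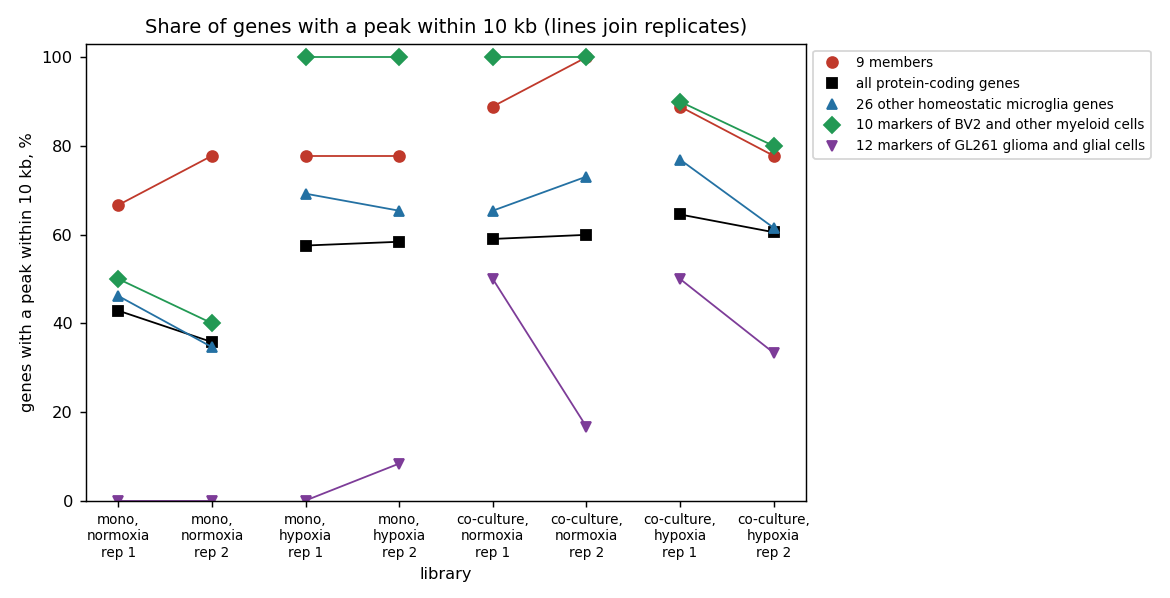
Percentage of genes with a peak within 10 kb (y axis) in each of the 8 libraries (x axis), for the 9 genes, all protein-coding genes and 3 marker lists, with lines joining the replicates of a group. The 9 genes lie above all protein-coding genes in every library, and the glioma and glial markers are at 0 to 1 gene in monoculture and 2 to 6 genes in co-culture.

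At the annotated starts, peaks were called in some libraries only. No gene of the 6 with a promoter window had a peak there in all 8 libraries, against 15.9% of all promoter windows and 2.92% of the 8731 windows with no more than 8 CpG. The windows of Cx3cr1 and Trem2 had a peak in 6 libraries each and that of Olfml3 in 2, while those of P2ry12, Itgam and Aif1 had none. A peak in at least 1 library was found at 46.0% of all windows and at 13.8% of the CpG-poor windows. The regions called in every library, 5 of the 24 (20.8%, against 15.6% of all regions), overlapped no end of their gene, and 2 of them lay inside it and 3 beyond it.

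**Figure D2:**
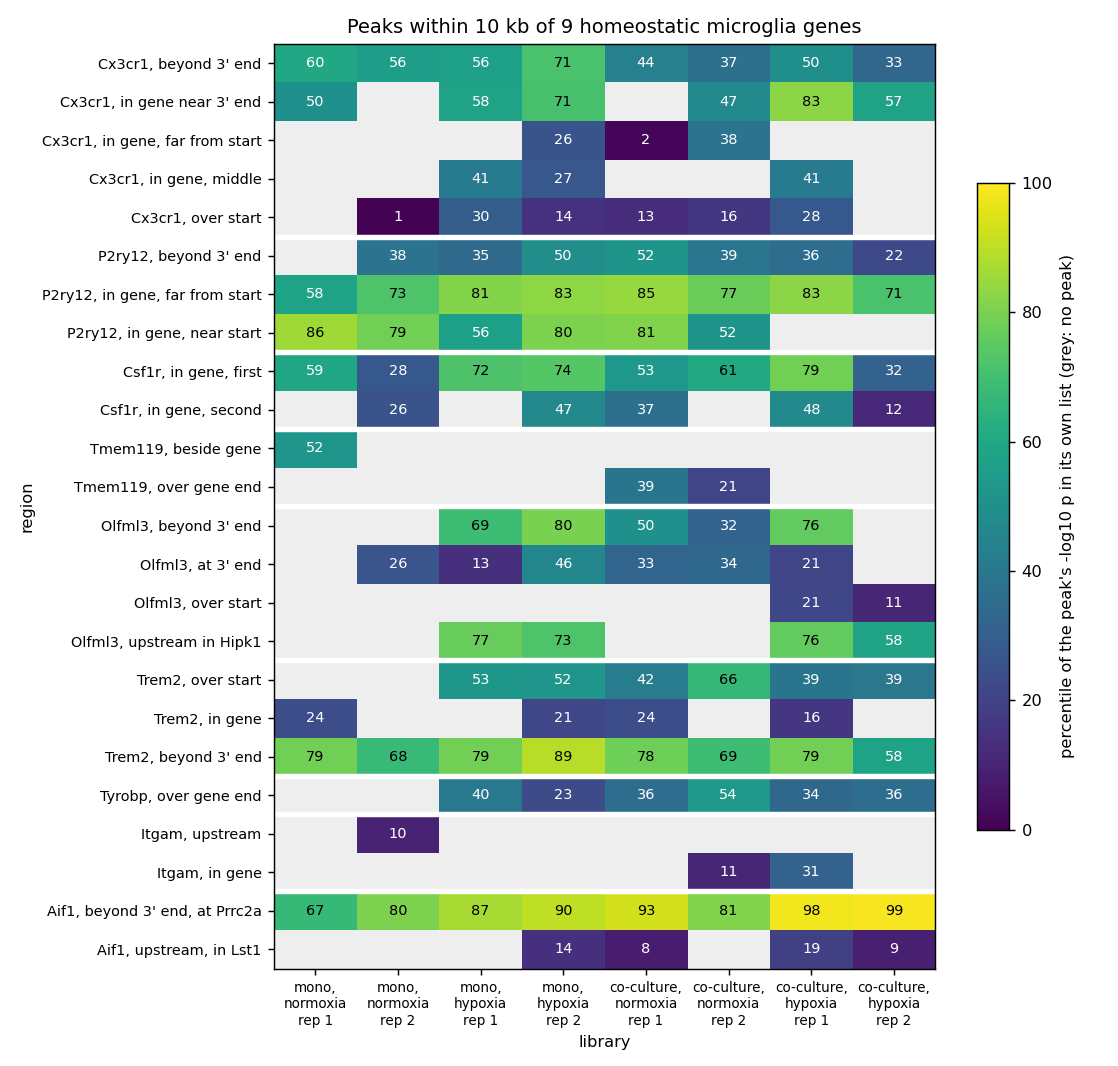
Each row is 1 of the 24 regions and each column 1 library; the colour gives the percentile, by −log10 p, of the strongest peak there within that library's list, and grey marks no peak. Rows filled across all 8 columns are seen for 5 regions, and the P2ry12 region 2 kb inside the gene is empty in both hypoxic co-culture columns.

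In the text that follows, a percentile without further words is the rank of a peak by the authors' −log10 p within its own list, where 100 is the strongest peak. Because ranks in lists of different length do not show a change, the 5 regions called in every library were also ranked among the same 6375 regions called in all 8 libraries, which is named the shared percentile. Values are given in the order monoculture normoxia, monoculture hypoxia, co-culture normoxia, co-culture hypoxia, replicate 1 before replicate 2.

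Cx3cr1, the fractalkine receptor, had 5 regions, the most of the 9 genes. The region called in every library lay 4729 bp beyond the 3′ end of the gene (chr9:120042949-120043954) and overlapped no annotated gene. Its shared percentile was 38.7 and 38.6, then 20.3 and 34.7 in monoculture, and 8.46 and 5.30, then 13.6 and 9.41 in co-culture. All 4 co-culture libraries were below all 4 monoculture libraries, with means of 9.18 and 33.1. The culture difference was −23.9 points, against a pooled SD between replicates of 5.43 (2 replicates in each of 4 groups), and the oxygen difference −3.30 points was within that SD. The two-sided exact permutation test within oxygen level gave p = 0.0556 for culture, the smallest its 36 relabellings can give, and 0.237 after Benjamini-Hochberg adjustment over 6375 regions. Its exact permutation p for oxygen was 0.778 (adjusted 0.893). The summit held 17 to 37 fragments, so counting error alone is large for this weak peak. The interaction of oxygen and culture was 15.8 points (exact permutation p = 0.0556, adjusted 0.935). Oxygen labels were permuted within culture for it, so this p is not an exact test of the interaction alone.

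The start of Cx3cr1 (chr9:120068245-120068931) was called in 6 libraries and always as a weak peak. Its percentile was 0.560 in monoculture normoxia replicate 2, 29.7 and 14.4 in monoculture hypoxia, 12.6 and 16.1 in normoxic co-culture, and 27.7 in hypoxic co-culture replicate 1. It held 9 to 19 fragments at the summit where it was called. The first library of normoxic monoculture and the second of hypoxic co-culture lacked it, so each condition had it in at least 1 library. Inside the gene, 18697 bp from the start, a region (chr9:120049391-120049837) was called in 6 libraries with percentiles from 47.3 to 82.6, the highest in co-culture hypoxia replicate 1. The other regions inside the gene were called in 3 libraries each. That at chr9:120058712-120059071 was found in both hypoxic monoculture libraries (41.4 and 26.99) and in co-culture hypoxia replicate 1 (40.7). That at chr9:120054743-120055254 was found in both normoxic co-culture libraries (1.67 and 37.9) and in monoculture hypoxia replicate 2 (25.9).

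P2ry12, the ADP receptor that steers microglial processes towards injury, lies inside the Med12l gene, and all 3 of its regions overlap Med12l. A region 34 kb inside the gene (chr3:59228741-59229572) was among the steadier peaks. Its percentile was 57.9 and 72.6, then 81.5 and 83.2, then 84.6 and 77.5, then 82.7 and 71.3. On the shared scale it ran from 36.5 to 59.5 with both extremes in normoxic monoculture, and neither oxygen (1.97 points, exact permutation p = 0.833) nor culture (−1.66 points, exact permutation p = 0.778) gave a difference beyond the pooled SD of 10.0 points. The region 3521 bp beyond the 3′ end (chr3:59210846-59212750), which also overlaps the gene of the related receptor P2ry13, was called in 7 libraries with percentiles from 22.1 to 51.7.

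In the full lists, the remaining P2ry12 region separated hypoxic co-culture from every other group. It lay 2 kb inside the gene from the start (chr3:59260320-59261324) and was called at percentiles of 85.8 and 78.6 in monoculture normoxia, 56.3 and 80.3 in monoculture hypoxia, and 81.1 and 51.9 in normoxic co-culture. Neither hypoxic co-culture library listed it. Of all 40784 regions, 35 (0.0858%) had its full-list pattern, a peak in the other 6 libraries and none in hypoxic co-culture. The pattern was taken from the region itself. Other regions here had rarer ones, shared by 10 regions for the second Csf1r region and 27 for the weaker Trem2 region. The count is therefore no evidence of its own about P2ry12. The summit of the P2ry12 region held 29 to 53 fragments in the 6 libraries that had it. In a comparison chosen after the values were seen, the number of fragments was divided by that of the region 34 kb inside the gene in the same library. The ratio was 1.55 and 0.967, then 0.577 and 0.841, then 0.911 and 0.644 in the 6 libraries that listed it. In hypoxic co-culture, 16 and 13 fragments would have been needed to pass the threshold over the background at the neighbouring region, which puts the ratio under about 0.267 and 0.317 there. These upper limits follow from the absence of the peak and from the threshold at that depth, and are no separate evidence of it. The 95% exact binomial counting intervals of the 6 ratios reached down to 0.355, and those of the 2 limits up to 0.469 and 0.604, so the counting intervals overlap.

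**Figure D3:**
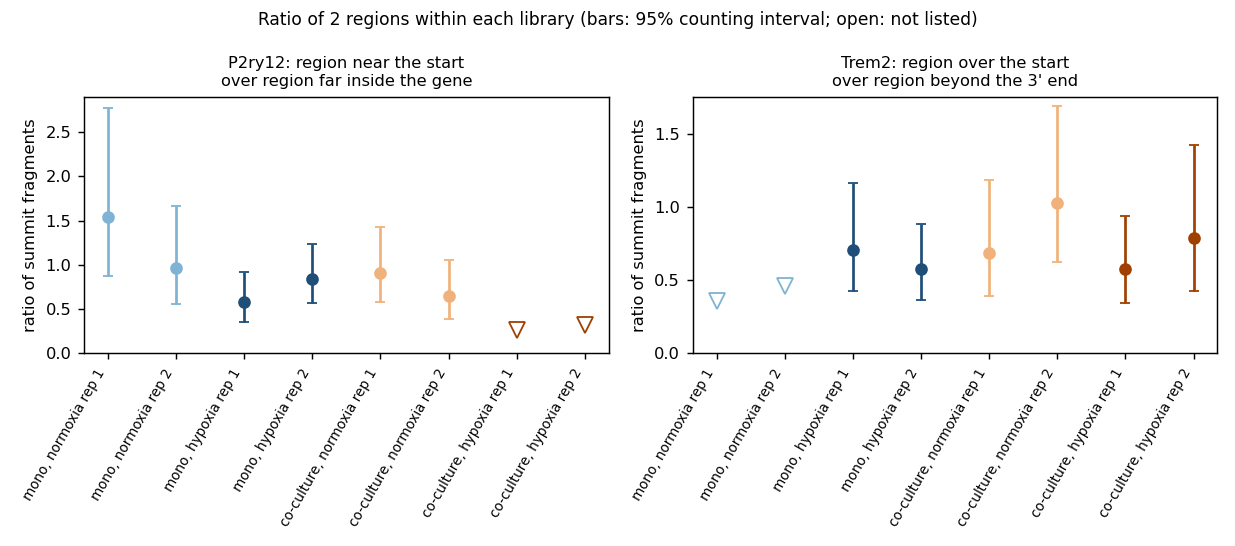
Ratio of summit fragments of 2 regions of the same gene (y axis) in each library (x axis), with 95% exact counting intervals on the filled points; open triangles mark the limit in libraries that did not list the first region. For P2ry12 the limits are 0.267 and 0.317 in hypoxic co-culture and the other 6 libraries lie at 0.577 or above, and for Trem2 the limits are 0.357 and 0.458 in normoxic monoculture and the other 6 lie at 0.574 or above.

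Csf1r, the receptor for CSF1 and IL-34 on which microglia depend, had 2 regions, both inside the gene on chromosome 18. The first (chr18:61107759-61109041) was called in every library, with percentiles of 58.9 and 27.5, then 72.1 and 73.7, then 53.5 and 60.7, then 78.6 and 31.6. The second replicates of normoxic monoculture and of hypoxic co-culture were the 2 lowest, and the groups overlapped. On the shared scale it ran from 8.77 to 45.1, with a pooled SD of 16.0 points, the largest of the 5 regions. The oxygen difference was 11.6 points (exact permutation p = 0.389) and the culture difference −9.13 points (exact permutation p = 0.5), both within that SD. The oxygen difference was 2.54 points without normoxic monoculture replicate 2, 2.62 without hypoxic co-culture replicate 1 and 21.1 without hypoxic co-culture replicate 2. The culture difference was −1.96 points in the whole-list ranking and ran from −18.8 to 0.796 with 1 library left out. The second region (chr18:61120014-61120837) was called in 5 libraries, at least 1 in each group, with percentiles from 11.6 to 47.8.

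Trem2 and Tyrobp encode a receptor and the adaptor through which it signals, and 1 region of each had the same pattern of presence. The region over the Trem2 start (chr17:48346122-48346899) had no peak in either normoxic monoculture library. It was called at 52.8 and 52.0 in monoculture hypoxia, 41.9 and 66.4 in normoxic co-culture, and 38.9 and 39.5 in hypoxic co-culture. The only region of Tyrobp, over the low-coordinate end of the gene (chr7:30412734-30414139), was likewise absent from both normoxic monoculture libraries and was called at 40.3 and 23.3, then 35.6 and 53.6, then 34.0 and 35.8 in the other groups. It also overlaps the predicted gene Gm32029 and lies 3573 bp from Hcst, which encodes the related adaptor DAP10. This pattern is common: 2026 of all regions (4.97%) were missing from the normoxic monoculture pair alone. The normoxic monoculture lists were also the 2 shortest, with 13333 and 9910 peaks against 21633 or more. With every list limited to its 9910 strongest peaks, the Trem2 start was called in 1 library (co-culture normoxia replicate 2) and the Tyrobp region in none.

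In the same comparison within a library, also chosen after the values were seen, the summit fragments of the Trem2 start were divided by those of the Trem2 region called in all libraries. The ratio was 0.707 and 0.574 in monoculture hypoxia, 0.686 and 1.03 in normoxic co-culture, and 0.574 and 0.786 in hypoxic co-culture. In normoxic monoculture the threshold would have taken 10 and 11 fragments, which gives upper limits of about 0.357 and 0.458. These limits follow from the absence of the peak and are no separate evidence of it. Their 95% counting intervals reached up to 0.757 and 0.972, which overlaps the ratios of the other libraries.

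The Trem2 region called in every library lay 3428 bp beyond the 3′ end (chr17:48355704-48356460), between Trem2 and Treml1, at percentiles of 78.7 and 67.7, then 78.7 and 89.1, then 77.9 and 69.1, then 78.5 and 58.0. Its shared percentile was 62.9 and 53.1, then 47.2 and 66.5 in monoculture, and 42.8 and 29.3, then 44.9 and 28.5 in co-culture. All 4 co-culture libraries were again below all 4 monoculture libraries (means 36.4 and 57.4). The culture difference was −21.0 points with a pooled SD of 10.7 points (exact permutation p = 0.0556, the smallest possible; adjusted 0.237). The oxygen difference was −0.222 points (exact permutation p = 0.889). In the whole-list percentiles given above, the cultures overlapped, and the culture difference was −7.66 points. A weaker region inside the gene (chr17:48347071-48347879) was called in 4 libraries, 1 in each group, at 15.6 to 23.6.

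**Figure D4:**
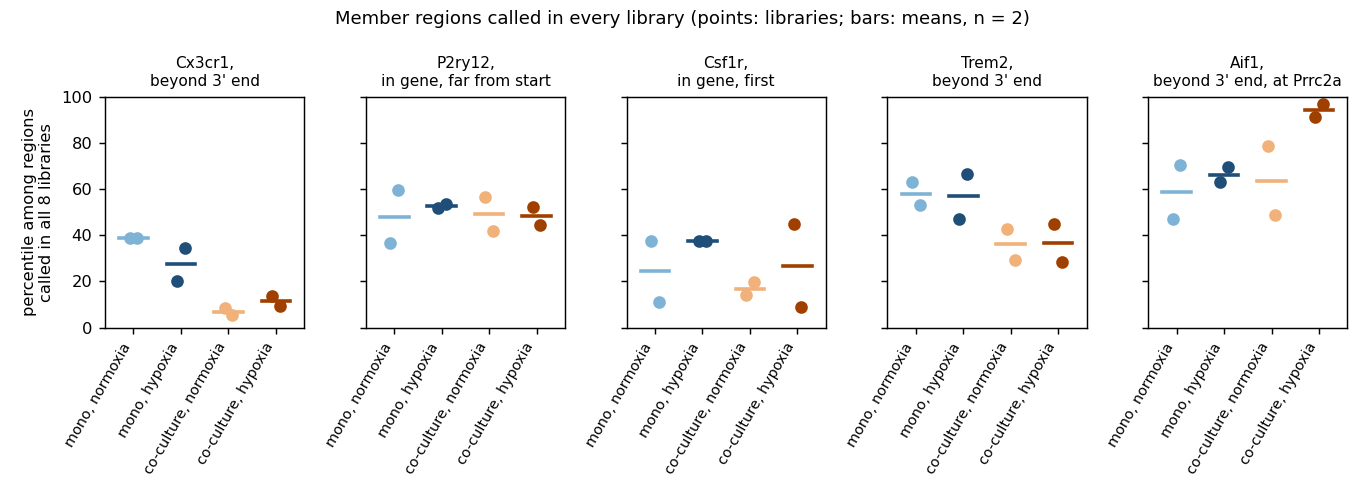
Shared percentile (y axis, rank among the 6375 regions called in all 8 libraries) of the 5 regions called in every library, by group; points are libraries and bars the means of 2. For Cx3cr1 and Trem2 the 4 co-culture points lie below the 4 monoculture points, and for Aif1 the hypoxic co-culture pair, at 91.3 and 96.7, lies above the other 6.

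Olfml3, a secreted olfactomedin-domain protein enriched in microglia, had 4 regions, among them the 1 region of the 24 whose presence separated the oxygen levels. A region 7.6 kb upstream of its start (chr3:103745380-103746027) was called in all 4 hypoxic libraries and in no normoxic one. The percentiles were 76.8 and 72.6 in monoculture and 75.9 and 58.5 in co-culture, and the summits held 38, 35, 39 and 25 fragments. The region lies inside the neighbouring gene Hipk1, a kinase gene, and peaks alone do not assign it to either gene. Of all regions, 2.08% were gained with hypoxia in this 4 against 4 sense, and 1 of the 24 regions here was, so the count itself is no result about these genes. It stayed called in the 4 hypoxic and no normoxic library when every list was limited to 9910 peaks. The region over the start of Olfml3 (chr3:103737951-103738548) was called in hypoxic co-culture alone, at 21.1 and 10.6, with 19 and 13 fragments. With 9910 peaks in each list, this region was called in 0 libraries.

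The other regions of Olfml3 were called in libraries of both oxygen levels. A region 88 bp from the 3′ end (chr3:103734820-103735306) was called in 6 libraries at 13.3 to 45.8, and was absent from monoculture normoxia replicate 1 and co-culture hypoxia replicate 2. The region 6948 bp beyond that end (chr3:103727600-103728446) was called at 69.0 and 79.7 in monoculture hypoxia, 50.3 and 32.0 in normoxic co-culture and 75.8 in hypoxic co-culture replicate 1. Monoculture normoxia lacked it in both libraries. Co-culture hypoxia replicate 2 lacked both regions and replicate 1 had both, in lists of 21633 and 29658 peaks.

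Tmem119, a transmembrane protein used as a marker of brain-resident microglia, had a peak in 3 libraries and no region in more than 2. The region over the high-coordinate end of the gene (chr5:113800193-113800713) was called in the 2 normoxic co-culture libraries, at 38.7 and 21.1 with 18 and 14 fragments, and in none of the other 6. It also overlaps the predicted gene Gm42004. A region 6412 bp from the gene (chr5:113787008-113787317) was called in monoculture normoxia replicate 1 alone, at 52.3.

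Itgam and Aif1 mark microglia and macrophages alike. Itgam (CD11b) had 2 weak regions, 1 upstream (chr7:128058578-128059237) in monoculture normoxia replicate 2 at 9.88, and 1 inside the gene (chr7:128089262-128089639) in normoxic co-culture replicate 2 at 10.7 and hypoxic co-culture replicate 1 at 31.4. Neither region was called in both libraries of any group, so neither was gained or lost in any contrast. Aif1 (IBA1) had no peak over its gene body. Its strong region (chr17:35164671-35165673) lay 5313 bp beyond the 3′ end of Aif1 and over the high-coordinate end of Prrc2a, and peaks alone do not assign it to either gene. A weak region 9747 bp upstream, inside Lst1 (chr17:35185830-35186404), was called in 4 libraries at 7.55 to 18.9.

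The Prrc2a region near Aif1 was the highest ranked of the 24 in 7 of the 8 libraries, all but monoculture normoxia replicate 1. Its percentile was 67.0 and 80.4, then 86.9 and 90.4, then 93.2 and 81.0, then 97.8 and 98.9. The summit held 152 and 194 fragments in hypoxic co-culture and 21 to 65 in the other 6 libraries. The local background was also higher there, 11.8 and 14.3 fragments in hypoxic co-culture against 1.62 to 4.92 elsewhere. The authors' fold, each list's own, was 11.99 and 12.8 in hypoxic co-culture and 8.39 to 11.7 elsewhere. On the shared scale it stood at 91.3 and 96.7 in hypoxic co-culture and from 47.1 to 78.6 elsewhere. Of the 6375 shared regions, 14.3% had both hypoxic co-culture libraries above the other 6, a count chosen after this region was seen. The oxygen difference was 18.9 points (exact permutation p = 0.167, adjusted 0.381) and the culture difference 16.4 points (exact permutation p = 0.167, adjusted 0.368), both beyond the pooled SD of 13.8 points. Ranked by fold, the oxygen difference was 1.93 points and the culture difference 4.58 points. Leaving out 1 library gave 11.3 (without normoxic co-culture replicate 2) to 26.1 points for oxygen and 8.86 (without normoxic co-culture replicate 1) to 23.6 points for culture. The groups overlapped by oxygen and by culture. The interaction was 22.8 points (p = 0.444 by exact permutation of oxygen labels within culture).

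**Figure D5:**
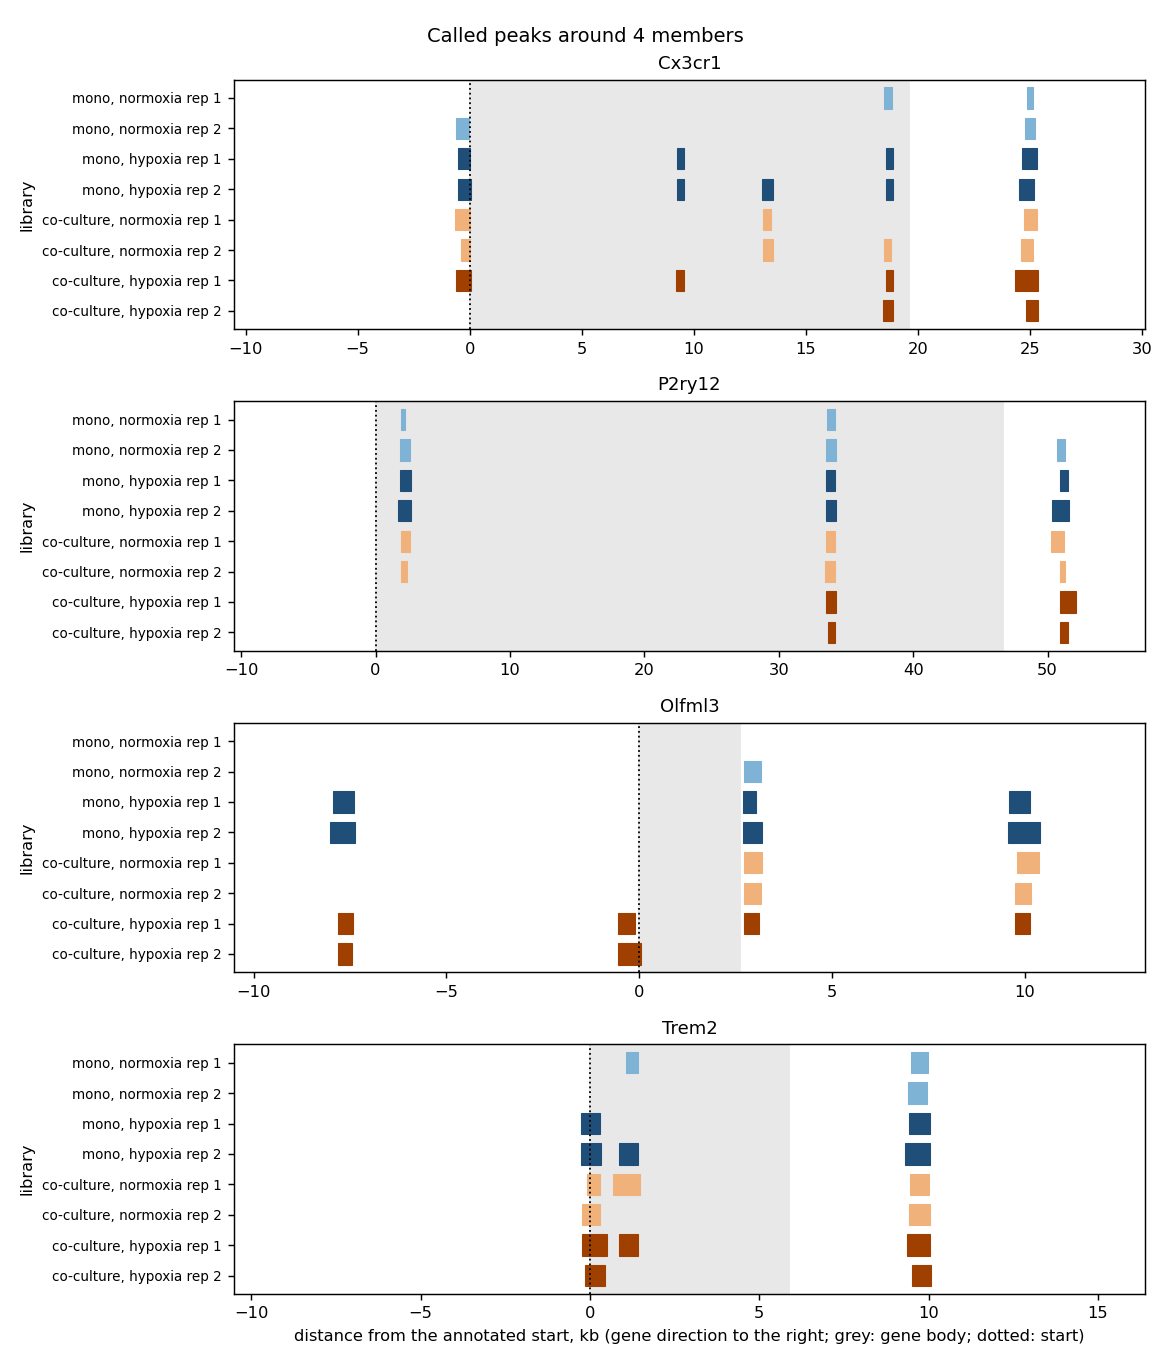
Called peaks (bars) in each library (rows) by distance in kb from the annotated start (x axis) for Cx3cr1, P2ry12, Olfml3 and Trem2, with the gene body in grey. The bar 2 kb into P2ry12 is missing in both hypoxic co-culture rows, and the bar 7.6 kb before the Olfml3 start is present in the 4 hypoxic rows alone.

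Counted over contrasts, gained means that 2 of 2 libraries in 1 group and 0 of 2 in its control listed a region, and lost means the opposite. With hypoxia in monoculture, 5 of the 21 regions seen in those 4 libraries were gained (in Cx3cr1, Trem2, Tyrobp and, for 2 regions, Olfml3) and none lost, which is 23.8% against 23.7% of all regions gained and 0.24% lost. That balance depends on the length of the lists: with 9910 peaks in each, 8.89% of all regions were gained and 6.19% lost. With co-culture in normoxia, 5 of 21 were gained (in Cx3cr1, Tmem119, Olfml3, Trem2 and Tyrobp) and none lost, against 18.8% and 0.274% of all regions. Of these, 3 regions (Olfml3, Trem2, Tyrobp) were gained in both contrasts, which share the normoxic monoculture libraries. With hypoxia in co-culture, 2 of 22 were gained (both in Olfml3) and 3 lost (in Cx3cr1, P2ry12 and Tmem119), which is 9.09% and 13.6% against 7.04% and 2.38% of all regions. With 9910 peaks in each list, 9 regions of these genes were seen in that contrast and none was lost. Of all regions, 7.15% were gained and 7.52% lost there. A count of 0 among 9 tells little at such shares. With co-culture in hypoxia, 1 of 21 was gained (the Olfml3 start) and 1 lost (P2ry12), against 6.36% and 4.1% of all regions. These counts depend on single libraries: 3 were gained without hypoxic monoculture replicate 2, and 5 were lost without hypoxic co-culture replicate 1. With 9910 peaks in each list, both counts were 0 of the 9 regions seen (9.44% and 8.96% of all regions). In the other contrasts, leaving out normoxic monoculture replicate 2 gave 8 gained with hypoxia in monoculture and 8 with co-culture in normoxia. With hypoxia in co-culture, 4 were gained without normoxic co-culture replicate 1 and 6 lost without hypoxic co-culture replicate 1. The share gained with hypoxia in monoculture was that of all regions, and the other shares rest on 1 to 5 regions. A contrast of 2 libraries against 2 cannot give a two-sided exact permutation p under 0.333, and the culture contrasts go with the glioma marker counts given above.

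Between all 4 hypoxic and all 4 normoxic libraries, the Olfml3 region inside Hipk1 was the 1 region gained and none was lost, where 0.0196% of all regions were lost. Between all 4 co-culture and all 4 monoculture libraries, none of the 24 was gained or lost, against 1.98% and 0.027%. On the shared scale, 2 of the 5 regions called in every library had all co-culture libraries below all monoculture libraries (Cx3cr1 and Trem2), as did 6.46% of the 6375 regions, and none had them all above (5.62%). None of the 5 separated by oxygen, where 5.21% of the 6375 regions were higher and 6.89% lower in all 4 hypoxic libraries. Ranked in the whole list, Cx3cr1 alone of the 5 was apart by culture, and ranked by fold 1 of the 5 was. The part of glioma chromatin in these culture differences was not tested.

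In lists of equal number, 9910 peaks each, 16 regions of the 9 genes remained and several of these calls did not hold. The P2ry12 region 2 kb inside the gene was then called in both normoxic monoculture libraries, in monoculture hypoxia replicate 2 and in co-culture normoxia replicate 1. It was no longer lost by the rule in either contrast. Of 5 regions gained with co-culture in normoxia none remained, with 14 regions seen in that contrast. Of all regions in these lists, 6.11% were gained and 3.70% lost. Of 5 gained with hypoxia in monoculture 2 remained, both at Olfml3, out of 15 regions seen (13.3%). Of all regions, 8.89% were gained and 6.19% lost. The Cx3cr1 region beyond the 3′ end was then called in 3 of 4 monoculture libraries and in none of the 4 co-culture libraries, so that it became the 1 region lost with co-culture in normoxia.

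Other genes of homeostatic microglia were unevenly open. Of 26 such genes, 6 had a peak within 10 kb in all 8 libraries, 15 in 1 to 7 and 5 in none, named here after their values were seen: the complement genes C1qa, C1qb and C1qc, the receptor gene Fcrls and the microglial transcription factor gene Sall1. Cst3 (cystatin C) had a region at percentiles from 95.9 to 99.3, and another region that all 4 monoculture and no co-culture libraries had. Mertk, a receptor for apoptotic cells, and Sparc, a matrix protein, each had a region present in all 4 co-culture and no monoculture libraries. The glioma marker counts given above move with culture in the same way. Of 18 genes of activated microglia, 9 had a peak in all 8 libraries and the other 9 in 1 to 7. Tlr2, a receptor for bacterial lipoproteins, had a region present in all 4 hypoxic and no normoxic libraries, beside its steady region at 69.3 to 93.2. Of the marker genes, Ptprc and Cd79a also had such a region. By the same 4 against 4 rule, 1.98% of all regions were gained and 0.027% lost with co-culture, and 2.08% were gained with hypoxia. The number of regions searched in each list is not given, so the genes named by this rule are no result about the lists. Of 13 ligands and signalling partners of the 9 genes, 7 had a peak in every library and 6 in some of them. Those with the highest lowest percentile were Vav1 (81.4 to 97.5), Plcg2 (57.8 to 90.6) and Lcp2 (54.2 to 83.8), which act in signalling below receptors that use such adaptors. These counts have no test and stand beside the 30.4% of all protein-coding genes with a peak in all 8 libraries.

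As a description of likeness, the shared percentile of the strongest region was correlated over the 8 libraries with all other shared regions near genes. For the Aif1 region, a region near Gdpd5 was among the most like (r = 0.965). The Trem2 region was most like a region near both Kdm8 and Nsmce1 (r = 0.928) and 1 near Pan3 (r = 0.923), and the Csf1r region like those near Ldlrad4 (r = 0.962), Enpp6 (r = 0.932) and Hpcal1 (r = 0.921). All points share their libraries and depth, and the highest of 6375 correlations over 8 libraries were picked, so no p is given.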

How the data were processed

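ATAC-seq peak lists of 8 BV2 libraries, 2 biological replicates in each of 4 groups, were analysed. Per the submitters' processing notes, the tools were Trimmomatic 0.36, HISAT2 2.1.0, Picard, SAMtools, deepTools and MACS2 2.1.1.2, with build mm10. Their settings, including any Tn5 shift, are not given in the sources used here. The authors deposited 1 list per library. The deposited score, fold enrichment over background, −log10 p and −log10 q are the authors' own values for each peak. They were used only to rank, filter or describe peaks within a list. Reads were not used here, so depth was estimated: the fragment count at each summit was solved from the deposited fold and −log10 p, assuming a Poisson test and a pseudocount of 1 in the fold.

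Groups came from the sample titles. Peaks were merged into regions, linked to RefSeq genes (GRCm38.p6) within 10 kb, and ranked by −log10 p. Presence was compared by overlap of at least 1 bp. Percentiles of regions called in all 8 libraries were compared by two-sided exact permutation within the other factor, with Benjamini-Hochberg adjustment over 6375 regions. For the interaction, oxygen labels were permuted within culture, which takes no oxygen effect in either culture as its null. The members and lists were chosen with earlier results of these data known. The text names every member, its leading region (the highest lowest percentile), the region over a known start and every region gained or lost; a few others are described by presence. In the other lists it names genes gained or lost 4 against 4, or else the 3 with the highest lowest percentile. Genes most like a member were taken for the 3 members with the widest range of shared percentile. A few genes that these rules name are not reported here. Code was tested on simulated data. Alternatives were distance, a −log10 q of at least 5, equal-number lists, wide peaks left out, coverage of the region, summit windows, ranking by fold, ranking in the whole list, each library left out and a replicate block. The versions were matplotlib 3.10.9, pandas 2.3.3, numpy 2.4.6 and scipy 1.17.1, run under Python 3.11.15.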

Additional observations from a re-analysis of the deposited data

Results flagged for a closer look

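The region over the start of Trem2 was singled out because its whole-list percentile, with a library without the peak counted as 0, differed in opposite directions. The oxygen difference was 52.4 points in monoculture and -15.0 points in co-culture, and the culture difference was 54.2 points in normoxia and -13.2 points in hypoxia. These are ranks in lists of unequal length, so they show no change in opening, and the difference between the groups was not tested. The positive values come from the absence of the peak in the normoxic monoculture lists, which were the shortest. The ratio of fragments to the neighbouring Trem2 region was 0.686 and 1.03 in normoxic co-culture, 0.574 and 0.786 in hypoxic co-culture, and 0.707 and 0.574 in hypoxic monoculture, and these groups overlapped. In lists of equal number the region was called in 1 library.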

How the results depend on the processing

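Depth limits these results: a region absent from a list was not detectable there, the shortest lists are those of normoxic monoculture, and no test here can pass 0.05, since the smallest exact permutation p is 0.0556. A q filter, leaving out wide peaks, and summit windows moved none of the counts by over 1.5 times. The cause of the changes that follow was not tested.

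Genes with a peak in every library numbered 5 of 9, and 3 with gene bodies only, 3 at 2 kb and 3 in equal-number lists, where 23.5%, 24.8% and 19.5% of all protein-coding genes had one. Regions gained with hypoxia in monoculture numbered 5, and 3 with gene bodies only, 3 at 2 kb, 14 (of 49 regions tested) at 50 kb and 2 in equal-number lists. Regions gained with hypoxia in co-culture numbered 2 of 22 tested, and 1 of 14 with gene bodies only and 1 of 15 at 2 kb. The 3 lost became 0 of 9 tested in equal-number lists (7.52% of all regions lost there). Those gained with co-culture in normoxia numbered 5 of 21 tested, and 13 of 46 at 50 kb and 0 of 14 in equal-number lists. They were 3 where peaks had to cover 50% of the region, while 0 lost became 1 in equal-number lists. With co-culture in hypoxia, 1 gained and 1 lost each became 0 of 9 tested in equal-number lists (9.44% and 8.96% of all regions there). The lost count became 2 with 50% coverage. The 1 region gained in all hypoxic libraries became 0 with gene bodies only and 0 at 2 kb. It lay 7379 bp from the gene body, so the distance rule fixed both counts. The 2 regions apart by culture became 1 in equal-number lists, 1 ranked in the whole list and 1 ranked by fold.

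Leaving out each library in turn gave 5 to 6 genes in every library. Gained with hypoxia in monoculture ranged from 5 to 8 (8 without normoxic monoculture replicate 2) and lost from 0 to 1 (1 without either normoxic monoculture replicate). Gained with hypoxia in co-culture ranged from 2 to 4 (4 without normoxic co-culture replicate 1) and lost from 3 to 6 (6 without hypoxic co-culture replicate 1). Gained with co-culture in normoxia ranged from 5 to 8 (8 without normoxic monoculture replicate 2) and lost from 0 to 1 (1 without either normoxic monoculture replicate). Gained with co-culture in hypoxia ranged from 1 to 3 (3 without hypoxic monoculture replicate 2, 2 without hypoxic co-culture replicate 2) and lost from 1 to 5 (2 without hypoxic monoculture replicate 1, 5 without hypoxic co-culture replicate 1). Gained in all hypoxic libraries ranged from 1 to 2, and regions apart by oxygen from 0 to 1, the higher value in each case without hypoxic co-culture replicate 2. Regions apart by culture ranged from 2 to 3.

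The oxygen difference of the Cx3cr1 region turned to 3.62 points in the whole list and 0.545 by fold, and ran from -6.81 to 0.408 with libraries left out. That of P2ry12 turned to -1.82 in equal-number lists and -6.71 by fold, and ran from -4.64 to 5.56. That of Trem2 turned to 2.72 in the whole list and 1.14 by fold, and ran from -5.40 to 4.58. The culture difference of P2ry12 turned to 5.25 in the whole list and 11.98 by fold, and ran from -7.71 to 2.51, and that of Csf1r ran from -18.8 to 0.796. The culture differences of Cx3cr1 (-28.4 to -20.5) and Trem2 (-25.8 to -16.1) moved by less than 1.5 times with each library left out. The oxygen difference of Csf1r (2.54 to 21.1) and both differences of Aif1 (11.3 to 26.1 for oxygen, 8.86 to 23.6 for culture) kept their direction but moved by more. By fold, those of Aif1 fell to 1.93 for oxygen and 4.58 for culture, and in equal-number lists they rose to 26.99 and 26.4. In the whole list, the culture differences of Trem2 and Csf1r were -7.66 and -1.96.

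With a replicate block, the exact permutation p of the culture difference was 0.125 for Cx3cr1 and for Trem2, the smallest that 16 relabellings can give, and no call changed. The correlations of replicate deviations between groups ran from -0.0299 to 0.0476, apart from 0.196 between normoxic and hypoxic co-culture. They cannot show whether samples with the same replicate number were prepared together. The Cx3cr1 and Csf1r regions have no equal-number percentile, since they are then not in all 8 lists.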
